A study of Rattus norvegicus with 31 samples.

Results

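The difference between a high fat and a low fat diet was compared between white adipose tissue (WAT) and liver of the same rats. The rule took the liver and WAT arrays of the 9 rats with both tissues, 5 of the L-group (rats 1 to 5) and 4 of the H-group (rats 12, 13, 15 and 16), which makes 18 of the 31 arrays of the series. It took the probe sets that are no array controls and whose WAT values ranged over more than 0.01 on the log2 scale, which makes 5007 of 31042. A probe set is the group of probes that measures 1 transcript on the array. Of the 5007, 3900 carry a single gene symbol and stand for 3355 genes.

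The rats were male Wistar rats, 3 weeks old when housed, and had a week of chow before the diets. By energy the L-diet held 65% carbohydrate and 15% fat, and the H-diet 35% carbohydrate and 45% fat. The added fat was soybean oil, with the same weight of lard in both diets, so the kind of fat changed with its share. Both groups first ate their diets freely for a week. For 9 weeks after that the L-group ate freely, and the H-group received the same energy as the L-group ate. The rats had no food for the last 17 h. Each tissue was bulk RNA of 1 rat on 1 array, the liver kept in an RNA stabilizing solution and WAT frozen, and the WAT depot is not given in the sources used here.

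Liver and WAT both build fatty acids from citrate that leaves the mitochondria. Acly (ATP citrate lyase) splits it to acetyl-CoA, Acaca (acetyl-CoA carboxylase) makes malonyl-CoA, Fasn (fatty acid synthase) makes palmitate and Scd (stearoyl-CoA desaturase) adds the double bond of oleate. WAT stores these acids as triacylglycerol, and the liver also exports them and makes much of the cholesterol of the body. Srebf1 encodes the transcription factor SREBP, known to drive genes of both pathways.

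The authors summarized the liver arrays with RMA and the WAT arrays with qFARMS, each tissue on its own. A level cannot be compared between the tissues, and a log2 difference need not stand for the same change of RNA in both. Directions are therefore given beside the log2 values, and for some genes also ranks among the 5007 probe sets. Rank 1 is the lowest or the highest H minus L difference of that tissue. Where no rank is given, the log2 differences do not compare the size of the change between the tissues. In bulk tissue, fewer cells of a type and less RNA per cell cannot be told apart. The replicates are separate rats, and their number limits the precision of every value.

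The labels of the tissues were checked on marker genes. The 10 hepatocyte markers lay at or above the 92.2 percentile of the liver values, and 9 of them were constant in WAT to within 0.01, the exception being Alb, whose WAT values ranged over 4.88. The adipocyte markers lay at or above the 94.0 percentile in WAT. In the liver Cidec lay at the 94.1 and Cfd at the 78.1 percentile, and the others at or below the 61.0 percentile. The WAT array of rat H15 stood apart, with a mean correlation of 0.938 with the other WAT arrays against 0.952 to 0.960 for the rest. The mean of its 7 mesothelial markers was 1.76 above the mean of the 9 rats, with 0.38 for the 10 macrophage and 0.53 for the 8 fibroblast markers. Its Alb value was 2.72 above that mean, and its 5 adipocyte markers were 0.28 below. Rat H16 lay 1.42 below for the mesothelial markers and 1.09 above for the 4 neutrophil and mast cell markers. The lists below whose given median changed its sign without rat H15 are shown both ways. Liver arrays correlated at 0.988 to 0.991.

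Did the diet act alike in the tissues? H minus L was above 0 for 61.2% and below 0 for 38.8% of the probe sets in WAT, against 53.7% and 46.3% in the liver, and the signs were opposite for 2261 of 5007 (45.2%). The differences correlated weakly across probe sets (Pearson 0.22, Spearman 0.14), which is a description, since the probe sets share the 9 rats. Of the 250 lowest differences in WAT, 44 (17.6%) were among the 250 lowest in the liver and 20 (8.0%) among the 250 highest. Of the 250 highest in WAT, 33 (13.2%) were among the 250 highest and 4 (1.6%) among the 250 lowest in the liver. These shares stand beside that of a tail among all probe sets, 250 of 5007.

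**Figure D1:**
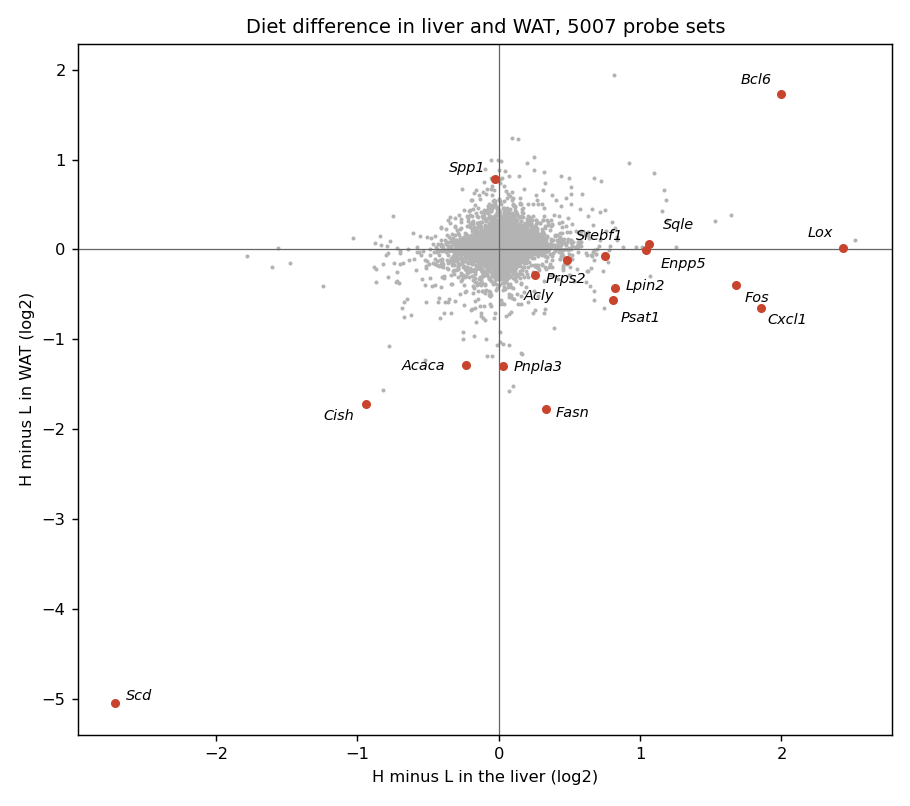
H minus L difference (log2) of each of the 5007 probe sets in the liver (horizontal axis) and in WAT (vertical axis), with 5 L and 4 H rats in each tissue. Red points are genes described in the text. Fasn, Pnpla3 and Acaca lie low in WAT and less far from zero in the liver, with only Pnpla3 near the liver zero. Sqle, Enpp5 and Lox lie high in the liver near the WAT zero, and Scd lies lowest in both tissues.

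For each probe set the difference between the tissues in H minus L, the interaction of tissue with diet, was tested with limma, a linear model that pools the spread over probe sets, with Benjamini-Hochberg adjustment over the 5007. No probe set passed an adjusted p of 0.05 (0.0%), the smallest being 0.0611, and 9 (0.18%) passed 0.10. At an unadjusted p under 0.05 there were 391 (7.81%), 182 (3.63%) with the WAT difference below the liver difference and 209 (4.17%) with it above. With rat as a fixed replicate block, which compares the tissues within each rat, limma called 1 probe set (0.02%), that of Enpp5, and with rat as a random replicate block it called 12 (0.24%). Among these 12 were both probe sets of Fasn, both of Pnpla3, and those of Prps2, Enpp5, Slc20a1, Lamp2 and Man2b1. Without rat H12 limma called 11 without a block, again with Fasn, Pnpla3, Prps2 and Lamp2 among them, and without any other rat 0.

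Within a single tissue limma called 0 probe sets in WAT (0.0%) with 358 (7.15%) at an unadjusted p under 0.05, and 3 in the liver (0.0599%) with 512 (10.2%) at an unadjusted p under 0.05. Tubb4b, a tubulin subunit, rose in the H livers by 0.66 ± 0.09 (SE, limma adjusted p = 0.0412) and differed by -0.07 ± 0.14 in WAT. Smim1, a small membrane protein, fell in the liver by 0.64 ± 0.08 (limma adjusted p = 0.0412) and differed by 0.00 ± 0.13 in WAT. The third had no gene symbol, and the liver calls numbered 0 without rats H12, H15, L1, L2 or L4, 1 without H13 or H16, 8 without L3 and 6 without L5. By rank products, the authors' method, which does not use the spread of each probe set between rats, there were 577 calls in WAT, 243 higher (4.85%) and 334 lower (6.67%), and 194 in the liver, 101 higher (2.02%) and 93 lower (1.86%). The ranks were taken over all 31042 probe sets, of which 26035 were nearly constant in WAT. The WAT and liver counts can therefore not be compared with each other.

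The fatty acid synthesis genes lay on the lower side in WAT of the H-group and on both sides of 0 in its liver. All 11 tested members had a WAT difference below 0, with a median of -0.29, and 6 had a liver difference above 0, with a median of 0.04. Over all 3355 genes, the medians were 0.03 in WAT and 0.01 in the liver. The L and H values did not overlap in WAT for 5 members, Fasn, Acaca, Acly, Slc25a1 and Aacs, all lower in H, against 1.08% of all probe sets. Rank products called 9 of 11 lower in WAT, against 6.67% of all probe sets, and 2 of 11 higher in the liver, against 2.02%. In the liver the unadjusted limma p was under 0.05 for 5 of 11, against 10.2% of all probe sets. Liver differences of the list ran from -0.25 to 0.75. For 5 of 11 members the unadjusted interaction p was under 0.05 with the WAT difference below the liver difference, against 3.63% of all probe sets, and the smallest adjusted p was 0.0828. Without rat H15, 2 members were above 0 in WAT and 5 in the liver, with medians of -0.29 and -0.02, so that the liver median changed its sign, as it did without rat L1 (-0.0058).

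Fasn had 2 probe sets. On the first, the WAT values of rats L1 to L5 were 10.71, 11.54, 10.56, 11.66 and 10.85, and those of rats H12, H13, H15 and H16 were 10.25, 8.40, 9.42 and 9.08. The liver values were 4.01, 3.94, 4.26, 3.86 and 3.66 in the L rats and 4.12, 4.50, 4.58 and 3.94 in the H rats. In WAT no H rat reached the lowest L rat, H12 coming closest, while in the liver the groups overlapped and 2 of the 4 H rats lay above every L rat. The diet difference (H minus L) was -1.78 ± 0.39 (SE) in WAT, the second lowest of all, and 0.34 ± 0.16 in the liver, the 217th highest. The difference between the tissues was -2.11 ± 0.43 (limma adjusted p = 0.0828, and 0.0452 with rat as a random replicate block). Rat as a fixed replicate block gave no call for Fasn. The other probe set gave -1.15 in WAT, 0.16 in the liver and -1.31 ± 0.26 between them with the same adjusted p. The liver level of the first probe set was at the 40.2 percentile of that tissue and that of the other at the 76.4 percentile.

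Acaca, the step before Fasn, ran lower in both tissues. Its WAT values were 11.05, 11.24, 10.73, 11.74 and 10.65 in rats L1 to L5 and 10.18, 9.28, 10.33 and 9.41 in rats H12, H13, H15 and H16. No WAT value of the H-group reached the lowest of the L-group. Acaca differed by -1.28 ± 0.30 in WAT, the 8th lowest, and by -0.23 ± 0.08 in the liver. The difference between the tissues of -1.05 ± 0.31 did not pass (limma adjusted p = 0.303).

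Acly, which supplies the acetyl-CoA, had opposite signs. In WAT rats L1 to L5 had 10.28, 10.41, 10.16, 10.49 and 10.15 and rats H12, H13, H15 and H16 had 10.10, 10.02, 10.07 and 9.89. In the liver they had 8.53, 8.38, 8.59, 8.50 and 8.69, and 8.51, 8.79, 8.87 and 8.99. The groups stood apart in WAT by a narrow gap, and in the liver 3 of 4 H rats were above every L rat. Acly differed by -0.28 ± 0.08 in WAT and by 0.25 ± 0.10 in the liver, and their difference of -0.53 ± 0.14 did not pass (limma adjusted p = 0.173).

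Srebf1 differed on the liver side. The liver values were 7.33, 6.97, 7.34, 7.26 and 7.66 in rats L1 to L5 and 8.29, 7.71, 8.34 and 7.92 in rats H12, H13, H15 and H16, without overlap (2.4% of all probe sets were higher in the H livers in this way). In WAT they were 10.33, 10.49, 10.76, 10.69 and 10.40, and 10.57, 10.49, 10.12 and 10.66, so the groups overlapped there. The gene differed by 0.75 ± 0.16 in the liver, the 34th highest, and by -0.08 ± 0.13 in WAT, with a difference of -0.83 ± 0.22 (limma adjusted p = 0.188). Of the other members, Thrsp, a protein that accompanies lipogenesis, was called lower in WAT (-0.29) and higher in the liver (0.51) by rank products on the probe set with the higher mean, with adjusted p = 0.697 between the tissues in limma. Me1, the malic enzyme, gave -0.92 ± 0.29 in WAT and -0.25 ± 0.09 in the liver, and the WAT value of rat H12 lay within the L-group.

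**Figure D2:**
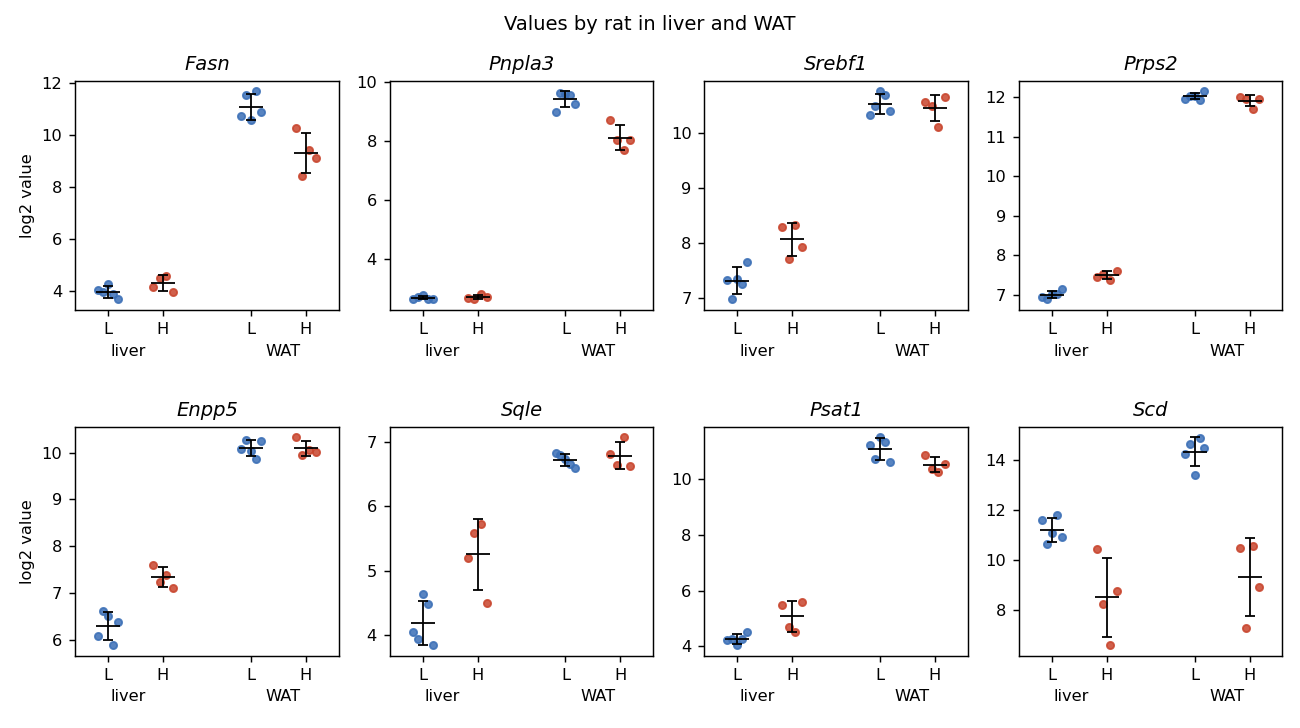
Log2 values of single rats (points) for 8 genes in the liver and in WAT, with the mean and SD of the 5 L and 4 H rats (bars), and with Fasn and Pnpla3 on the probe set given first in the text. The scales of the tissues differ, so only L and H within a tissue can be compared, and WAT of the H-group lies below the L-group without overlap for Fasn, Pnpla3 and Scd but not for Srebf1, Prps2, Enpp5 and Sqle, which lie higher in the H livers.

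Pnpla3 encodes a lipid droplet protein with lipase and acyltransferase activity, known as a target of SREBP. On the first of its 2 probe sets, WAT of rats L1 to L5 had 8.99, 9.61, 9.60, 9.56 and 9.26 and that of rats H12, H13, H15 and H16 had 8.71, 8.01, 7.69 and 8.02. In the liver the values were 2.64, 2.71, 2.75, 2.63 and 2.62, and 2.67, 2.62, 2.79 and 2.71. The WAT groups did not overlap, and the liver values of both groups covered the same narrow range. The diet difference was -1.30 ± 0.22 in WAT, the 7th lowest, and 0.03 ± 0.06 in the liver, and the difference between the tissues was -1.32 ± 0.23 with a 95% confidence interval from -1.81 to -0.84 (limma adjusted p = 0.0611, and 0.0293 with rat as a random replicate block). Rat as a fixed replicate block gave no call for Pnpla3. With each rat left out the adjusted p ran from 0.00287 to 0.227. The liver level was at the 6.9 percentile of that tissue, where a lower level in the H-group could hardly have been seen. The other probe set, at the 23.7 percentile in the liver, gave -1.06 in WAT and -0.01 in the liver. Of the other 8 lipolysis and lipid droplet genes tested, none had an unadjusted interaction p under 0.05.

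The 250 bases before the start sites of Pnpla3 and Acly, which were lower in WAT without overlap, and of Prps2, which had the smallest interaction p of all, are shown for their CCAAT motifs, the box bound by the factor NF-Y. The sequences are those of RefSeq on GRCr8, at chr7:117173278-117173527 (+) for Pnpla3, chr10:85963632-85963881 (-) for Acly and chrX:30592595-30592844 (+) for Prps2. Capitals mark CCAAT, or ATTGG where it stands on the other strand, with the first base 111 and 64 bases before the start site of Pnpla3, 71 before that of Acly and 32 before that of Prps2.
Pnpla3: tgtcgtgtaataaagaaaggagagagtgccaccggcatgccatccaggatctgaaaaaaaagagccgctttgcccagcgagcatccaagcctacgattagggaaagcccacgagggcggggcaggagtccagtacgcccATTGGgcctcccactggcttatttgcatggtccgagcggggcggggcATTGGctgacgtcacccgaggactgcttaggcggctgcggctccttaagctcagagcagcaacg
Acly: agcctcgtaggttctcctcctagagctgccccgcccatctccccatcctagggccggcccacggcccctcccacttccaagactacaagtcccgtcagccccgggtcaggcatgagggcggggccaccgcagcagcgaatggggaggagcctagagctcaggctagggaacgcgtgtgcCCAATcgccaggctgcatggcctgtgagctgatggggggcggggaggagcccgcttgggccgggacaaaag
Prps2: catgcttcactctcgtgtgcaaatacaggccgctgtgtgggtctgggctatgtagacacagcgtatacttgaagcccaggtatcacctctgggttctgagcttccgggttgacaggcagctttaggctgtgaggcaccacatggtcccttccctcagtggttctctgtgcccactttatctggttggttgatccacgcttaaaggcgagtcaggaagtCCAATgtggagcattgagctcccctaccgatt
On either strand, CCAAT was in 34.0% of the 33469 promoters of this length, in 5 of the 8 fatty acid synthesis genes with a promoter in the table and in 5 of the 7 cholesterol synthesis genes. GGGCGG, the core of the Sp1 box, was in 30.5% of all, in 7 of 8 and in 5 of 7, and CACGTG, the E-box, in 5.59% of all, in 0 of 8 and in 1 of 7. These matches describe the letters of the windows alone.

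Scd had the lowest difference of all 5007 probe sets in both tissues. WAT of rats L1 to L5 had 14.27, 14.67, 13.40, 14.91 and 14.51 and that of rats H12, H13, H15 and H16 had 10.50, 7.25, 10.58 and 8.90. The liver had 11.63, 10.63, 11.07, 11.80 and 10.92, and 10.43, 8.23, 6.57 and 8.75. The groups did not overlap in either tissue, although in the liver the gap to rat H12 was narrow. H minus L was -5.05 ± 0.69 in WAT and -2.71 ± 0.64 in the liver (limma adjusted p = 0.326 and 0.239), and the difference between the tissues of -2.33 ± 0.98 did not pass (limma adjusted p = 0.582). Elovl6, which lengthens palmitate, gave -0.76 ± 0.19 in WAT, without overlap, and -0.41 ± 0.16 in the liver. Of the other desaturation and elongation genes, Scd2, Fads3, Elovl5 and Hacd3 were between 0.04 and 0.09 in WAT, and 1 of the 7 tested was above 0 in the liver.

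NADPH, which Fasn consumes, is supplied by the pentose phosphate pathway and by Me1. Of 5 tested genes 2 were above 0 in WAT and 4 in the liver, with medians of -0.11 and 0.05. Tkt (transketolase) gave -0.11 ± 0.06 in WAT and 0.19 ± 0.07 in the liver, and Taldo1 (transaldolase) -0.26 ± 0.08 and 0.05 ± 0.06. Both differences between the tissues were -0.31 ± 0.10, with limma adjusted p = 0.361 and 0.370. Of 8 triacylglycerol synthesis genes none was above 0 in WAT and 3 were in the liver, with medians of -0.22 and -0.08.

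Lpin2, a phosphatidate phosphatase, was the triacylglycerol synthesis gene with the smallest interaction p. Its liver values were 7.32, 6.55, 7.95, 7.39 and 7.58 in rats L1 to L5 and 8.14, 8.05, 8.48 and 8.05 in the H rats, and its WAT values were 8.53, 9.66, 8.73, 8.87 and 9.13, and 9.04, 8.14, 8.50 and 8.53. The H livers were all above the L livers, and the WAT values overlapped. Lpin2 differed by 0.82 ± 0.24 in the liver and by -0.43 ± 0.25 in WAT, with a difference of -1.25 ± 0.37 (limma adjusted p = 0.284).

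The cholesterol synthesis genes differed on the other side, in the liver. All 9 tested members were above 0 in the liver with a median of 0.28, and 3 of 9 were above 0 in WAT with a median of -0.03. The unadjusted interaction p was under 0.05 for 4 of 9, Sqle, Fdps, Idi1 and Nsdhl, each with the WAT difference below the liver difference (3.63% of all probe sets), and the smallest adjusted p was 0.303. The L and H values overlapped in both tissues for all 9, and rank products called 2 of 9, Sqle and Idi1, higher in the liver (2.02% of all probe sets). Without rat H15, 8 members were above 0 in the liver with a median of 0.25. Without rat H13, 5 of 9 were above 0 in WAT with a median of 0.00045, and 7 in the liver with a median of 0.22.

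Sqle is squalene epoxidase, the first oxygenation step of sterol synthesis. The liver values were 4.06, 3.94, 4.64, 4.48 and 3.85 in rats L1 to L5 and 5.21, 5.58, 5.73 and 4.50 in rats H12, H13, H15 and H16. The WAT values were 6.82, 6.80, 6.73, 6.65 and 6.60, and 6.81, 6.64, 7.07 and 6.62. In the liver 3 H rats were above every L rat and H16 lay among them, and in WAT the groups overlapped throughout. Sqle differed by 1.06 ± 0.26 in the liver, the 15th highest, and by 0.06 ± 0.10 in WAT, at the 32.4 percentile of the WAT levels. The difference between the tissues of -0.995 ± 0.30 did not pass (limma adjusted p = 0.303). Idi1, the isopentenyl diphosphate isomerase, gave 0.69 ± 0.28 in the liver and -0.05 ± 0.07 in WAT, and Fdps, which makes farnesyl diphosphate, 0.43 ± 0.14 and -0.02 ± 0.05. Dhcr7, which makes the last step, was the exception with 0.02 in the liver and 0.25 in WAT.

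**Figure D3:**
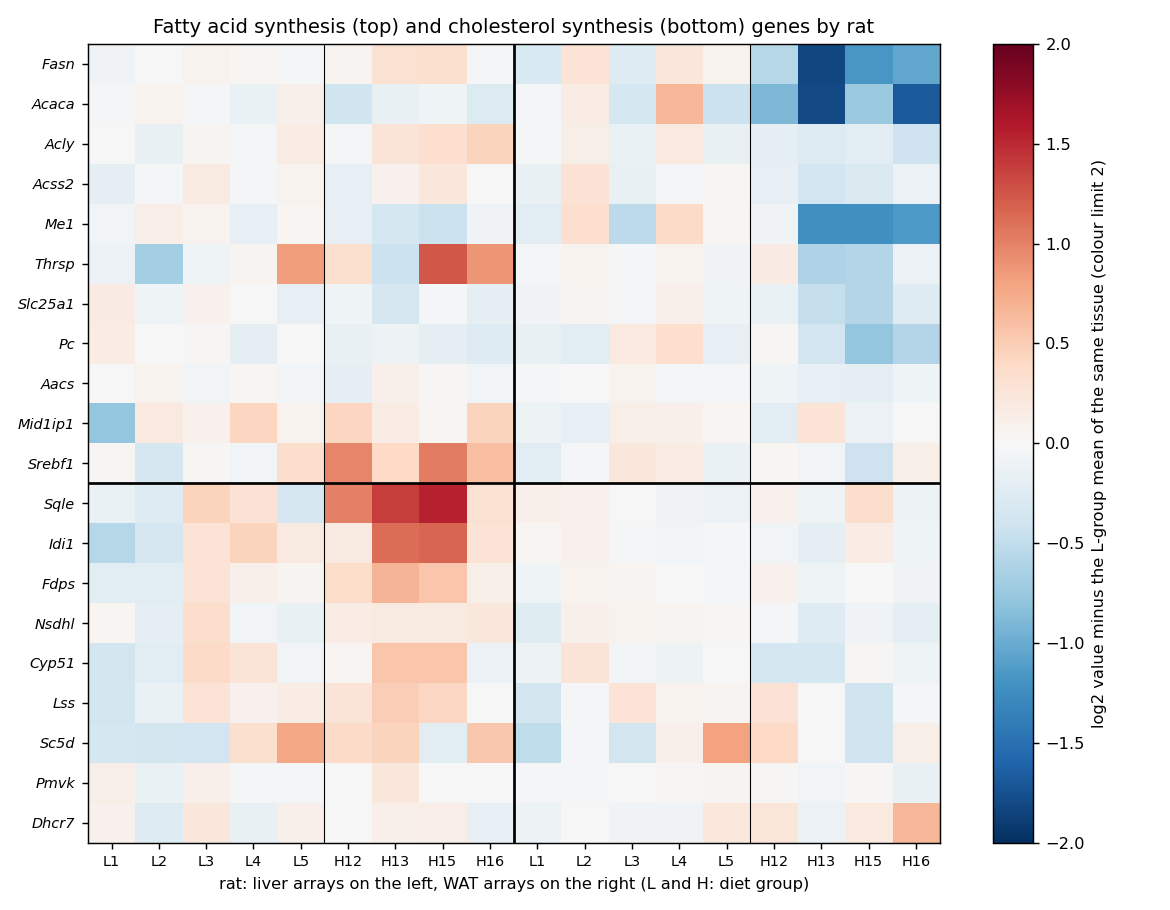
Log2 value of each array minus the L-group mean of the same tissue, for the 11 fatty acid synthesis genes (above the line, Fasn on the probe set with the higher mean) and the 9 cholesterol synthesis genes (below), by rat, with liver arrays on the left and WAT arrays on the right and colours limited at 2. The blue cells of Fasn, Acaca and Me1 stand in WAT of the H rats, and the red cells of Sqle, Idi1 and Srebf1 in their livers.

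Serine synthesis and the amino acid response, whose genes are targets of ATF4, also had opposite signs. Of 8 tested genes 1 was above 0 in WAT and 6 in the liver, with medians of -0.12 and 0.20. Without rat H15, 3 were above 0 in WAT with a median of -0.037, and without rat H12, 2 with a median of -0.23. Psat1, the transaminase of serine synthesis, had liver values of 4.22, 4.28, 4.04, 4.26 and 4.51 in rats L1 to L5 and of 5.49, 4.68, 4.52 and 5.61 in rats H12, H13, H15 and H16. In WAT it had 11.22, 10.70, 11.49, 11.32 and 10.59, and 10.87, 10.37, 10.24 and 10.53. The liver groups did not overlap, although rat H15 lay just above the highest L rat, and in WAT all H rats but H12 were below every L rat. The L liver mean of Psat1, 4.26, was low, near the liver mean of the adipocyte marker Fabp4 (4.27). That of Asns, of the same list, was 3.30, below that of the adipocyte marker Adipoq (3.38), and that of Psph was 6.23. Psat1 differed by 0.81 ± 0.23 in the liver and by -0.56 ± 0.22 in WAT, with a difference of -1.37 ± 0.33 (limma adjusted p = 0.153). Psph, the phosphatase that releases serine, gave 0.34 ± 0.07 in the liver, without overlap, and -0.22 ± 0.11 in WAT (difference -0.56 ± 0.14, limma adjusted p = 0.156).

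The named probe sets with the smallest interaction p outside these lists were Prps2, Slc20a1, Enpp5 and Lamp2, named after their values were seen. Prps2 makes the phosphoribosyl pyrophosphate of nucleotide synthesis. Its liver values were 6.95, 6.88, 7.02, 7.02 and 7.14 in rats L1 to L5 and 7.44, 7.52, 7.38 and 7.61 in the H rats, and its WAT values were 11.97, 12.04, 12.05, 11.94 and 12.15, and 12.02, 11.96, 11.72 and 11.96. The livers stood apart and the WAT values overlapped. Prps2 differed by 0.49 ± 0.07 in the liver and by -0.12 ± 0.07 in WAT, and their difference was -0.60 ± 0.10 (limma adjusted p = 0.0611). The limma adjusted p was 0.0293 with rat as a random replicate block and 0.0886 with rat as a fixed replicate block.

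Enpp5, a membrane protein of the nucleotide pyrophosphatase family, was the call with rat as a fixed replicate block. In the liver rats L1 to L5 had 6.09, 6.62, 6.52, 5.90 and 6.40 and rats H12, H13, H15 and H16 had 7.61, 7.25, 7.40 and 7.11. In WAT they had 10.07, 10.26, 10.03, 9.87 and 10.25, and 10.33, 9.95, 10.06 and 10.01. Every H liver was above every L liver and WAT showed no separation. Enpp5 differed by 1.04 ± 0.16 in the liver, the 16th highest, and by -0.01 ± 0.11 in WAT, and their difference was -1.05 ± 0.20 (limma adjusted p = 0.0707, and 0.0320 with the fixed block). It ran from -1.12 to -1.01 with each rat left out, and its adjusted p without a block from 0.0548 to 0.227. Slc20a1, a phosphate transporter, gave 0.52 ± 0.07 in the liver and -0.10 ± 0.08 in WAT (difference -0.62 ± 0.11, limma adjusted p = 0.0707).

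Lamp2, a membrane protein of the lysosome, ran the other way. Its liver values were 10.29, 10.38, 10.37, 10.24 and 10.42 in rats L1 to L5 and 10.06, 10.03, 9.92 and 9.93 in the H rats, and its WAT values were 11.13, 11.14, 11.07, 11.11 and 11.24, and 11.14, 11.16, 11.24 and 11.17. The H livers were all below the L livers, as for 1.48% of all probe sets, and WAT overlapped. H minus L was -0.35 ± 0.06 in the liver and 0.04 ± 0.04 in WAT, and their difference was 0.39 ± 0.07 (limma adjusted p = 0.0707). Man2b1, the lysosomal alpha-mannosidase, gave -0.15 in the liver and 0.30 in WAT (difference 0.44 ± 0.10, limma adjusted p = 0.109, and 0.0493 with rat as a random replicate block). It was not called with rat as a fixed replicate block.

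**Figure D4:**
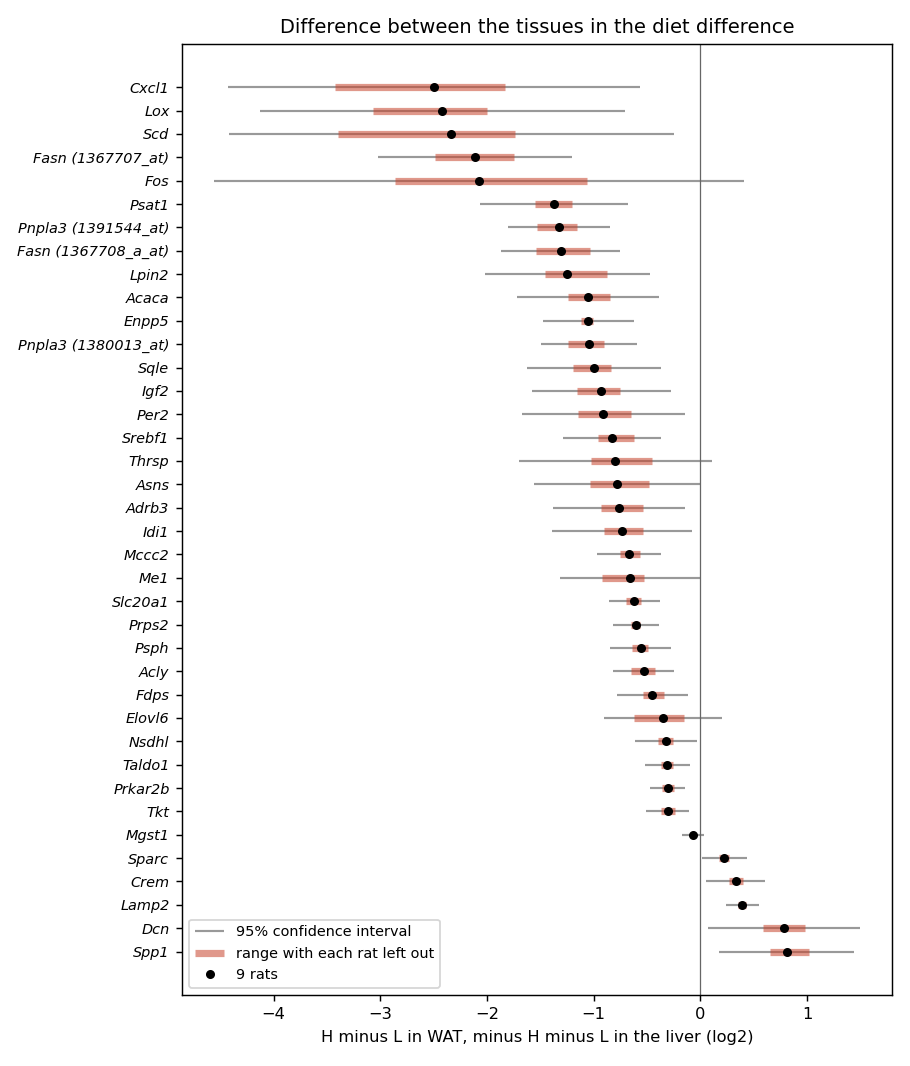
Difference between the tissues in H minus L (WAT minus liver, log2) for the genes described, with the 95% confidence interval of limma (thin line), the range when each rat is left out (thick line) and the value over the 9 rats (point). No gene passed an adjusted p of 0.05 without a block, and none of the 38 probe sets shown changed its sign with a rat left out. Many were named for their values on these same arrays, so the kept signs are no independent support.

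Opposite directions without overlap in both tissues were found for 2 probe sets (0.0399% of 5007), both lower in WAT and higher in the liver, and for 0 the other way (0.0%). Mccc2 is a subunit of the carboxylase that breaks down leucine. Its WAT values were 9.78, 9.73, 9.93, 9.47 and 9.78 in rats L1 to L5 and 9.35, 9.46, 8.98 and 9.10 in the H rats, and its liver values were 9.05, 9.05, 8.79, 9.00 and 9.13, and 9.19, 9.14, 9.18 and 9.14. The gap between the groups was narrow in both tissues. The difference between the tissues was -0.67 ± 0.14 (limma adjusted p = 0.109). Mgst1, a glutathione transferase, differed by only -0.01 in WAT and 0.06 in the liver.

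In the same direction without overlap there were 6 probe sets higher in both tissues (0.12%) and 5 lower (0.0999%). The genes lower in both were Scd, Ptprs, Ppm1l, Rchy1 and Sfxn1, and Pxdn and Sec63 were higher. Pxdn, a peroxidase that cross-links collagen, gave 0.46 in WAT and 0.17 in the liver. Sfxn1, a mitochondrial serine carrier, gave -0.33 and -0.18. By rank products over all 31042 probe sets, 21 were higher in both tissues (0.419%), 26 lower in both (0.519%), 14 lower in WAT and higher in the liver (0.28%) and 0 the reverse. With the ranks taken over the 5007 tested probe sets alone these counts were 2, 4, 0 and 0, and limma called 0 of each in both tissues. The 14 included Lpin2, Psat1, Thrsp on both probe sets, Cxcl1, Fos, Egr1, Igfbp2, Ccn1 and Ssx2ip.

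Among the genes called in both tissues in the same direction by rank products, Bcl6, a transcriptional repressor, gave 1.72 ± 0.60 in WAT and 1.995 ± 0.41 in the liver, the second and the third highest differences. Its WAT values were 7.45, 7.72, 8.12, 7.55 and 10.20 in rats L1 to L5 and 10.50, 8.93, 10.26 and 10.03 in the H rats. Rat L5 lay with the H-group. Cish, an inhibitor of cytokine receptor signaling, gave -1.72 ± 0.31 in WAT and -0.94 ± 0.63 in the liver on the probe set with the lower WAT difference. Its WAT values were 9.52, 9.39, 8.22, 8.96 and 8.93 in rats L1 to L5 and 8.03, 7.11, 6.92 and 7.09 in the H rats, without overlap. As the probe set was taken for its WAT difference, this separation is no independent evidence.

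Clock genes ran the same way in both tissues for the most part. Of 13 tested, 8 were above 0 in WAT (median 0.02) and 9 in the liver (median 0.22). The WAT share of 61.5% was that of all probe sets (61.2%, median 0.03), and the liver share was 69.2% against 53.7% (median 0.01). Dbp gave 0.85 in WAT and 1.10 in the liver, Bhlhe41 0.42 and 1.16, and on the lower side Bmal1 gave -0.36 and -0.87 and Npas2 -0.36 and -0.73. Of the 13, 2 were lower in WAT and higher in the liver and 1 the reverse, against 18.8% and 26.4% of all probe sets. Per2, a repressor of the clock, had the smallest interaction p of the list, at -0.13 ± 0.21 in WAT and 0.77 ± 0.27 in the liver (limma adjusted p = 0.549). The study reports Bmal1 (as Arntl) and Npas2 higher and Per2 lower in the H livers, which is opposite to the liver signs of the deposited values. The WAT median was 0.20 without rat H13 and 0.17 without L1, and it was below 0 without H15 (-0.052, with 6 of 13 above 0), H16 (-0.011) or L3 (-0.0076).

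Immediate early genes were lower in WAT for 15 of 18 and higher in the liver for 11 of 18, with medians of -0.21 and 0.06. The WAT direction was lost without rat L2, when 10 of 18 were above 0 with a median of 0.00093, and the WAT median ran from -0.47 without L3 or H16 to -0.021 without H13 for the other rats. Fos had WAT values of 11.32, 13.52, 8.59, 10.99 and 12.73 in rats L1 to L5 and 11.40, 9.15, 10.76 and 12.82 in the H rats, and liver values of 5.23, 6.32, 5.51, 6.67 and 6.15, and 7.59, 8.79, 7.16 and 7.06. The livers did not overlap, and the WAT values of the groups overlapped over most of their range. The difference between the tissues of -2.07 ± 1.17 did not pass (limma adjusted p = 0.726). Adrenergic and cyclic AMP signaling genes were above 0 for 1 of 9 in WAT and 6 of 9 in the liver, with medians of -0.21 and 0.09. Without rat H15 or without L1 the liver count was 4 of 9 with a median of -0.0073 or -0.0076, so that the liver was no longer above 0. Adrb3, the adrenergic receptor of adipocytes, gave -0.61 ± 0.28 in WAT and 0.15 ± 0.07 in the liver, where its level was at the 45.5 percentile. Prkar2b, a regulatory subunit of protein kinase A, gave -0.11 ± 0.04 and 0.20 ± 0.06 (limma adjusted p = 0.168 between the tissues). Its liver means were low, 3.30 in L and 3.50 in H, near that of the adipocyte marker Adipoq (3.38, at the 24.7 percentile of the liver).

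The matrix genes depended on rat H15. Of 33 collagen and matrix genes 27 were above 0 in WAT and 12 in the liver, with medians of 0.07 and -0.04. Without rat H15 the WAT count was 13 and the WAT median -0.09. The highest liver difference of the list was that of Lox, which cross-links collagen, with liver values of 8.31, 6.38, 9.34, 6.95 and 6.50 in rats L1 to L5 and 9.46, 10.41, 9.53 and 10.34 in the H rats. The H livers were all above the L livers, by a narrow gap to rat L3. Lox differed by 2.44 ± 0.60 in the liver, the second highest of all, and by 0.02 ± 0.48 in WAT (difference -2.42 ± 0.81, limma adjusted p = 0.398).

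The list of 13 bone and growth factor genes holds genes that the study chose on these WAT arrays, so its WAT direction is no independent evidence. In WAT 10 were above 0 with a median of 0.37, and in the liver 8 with a median of 0.01, which was below 0 without rat L2 or H16. Igf2, the growth factor, had WAT values of 9.41, 9.30, 9.38, 8.87 and 9.37 in rats L1 to L5 and 7.48, 8.31, 8.88 and 8.71 in the H rats, overlapping at rats L4 and H15. H minus L was -0.92 ± 0.27 in WAT and 0.01 ± 0.12 in the liver (limma adjusted p = 0.395 between the tissues). The liver means of Igf2, 4.21 in L and 4.23 in H, lay below that of the adipocyte marker Fabp4 (4.27, at the 43.5 percentile of the liver). Spp1 (osteopontin) gave 0.79 ± 0.29 in WAT and -0.02 ± 0.05 in the liver, and Sparc (osteonectin) 0.23 ± 0.07, without overlap as for 1.66% of all probe sets, and 0.00 ± 0.07. The macrophage markers were above 0 for 9 of 10 in WAT (median 0.24) and for 7 of 10 in the liver (median 0.09), and without rat H15 for 8 (median 0.11) and 6 (median 0.0079). Their part in the differences was not tested.

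The log2 scales of the tissues differ, so a gap between medians orders the lists only loosely. On the deposited values, interferon response genes had the widest such gap among the lists with the liver above WAT. All 18 were above 0 in the liver with a median of 0.41, and 12 were above 0 in WAT with a median of 0.07. Without rat H15 the counts were 12 in the liver and 5 in WAT and the medians 0.05 and -0.07, and without rat L5 the WAT median was -0.0077. Over all 5007 probe sets the same step moved the number above 0 from 3066 to 2688 in WAT and from 2687 to 2592 in the liver.

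**Figure D5:**
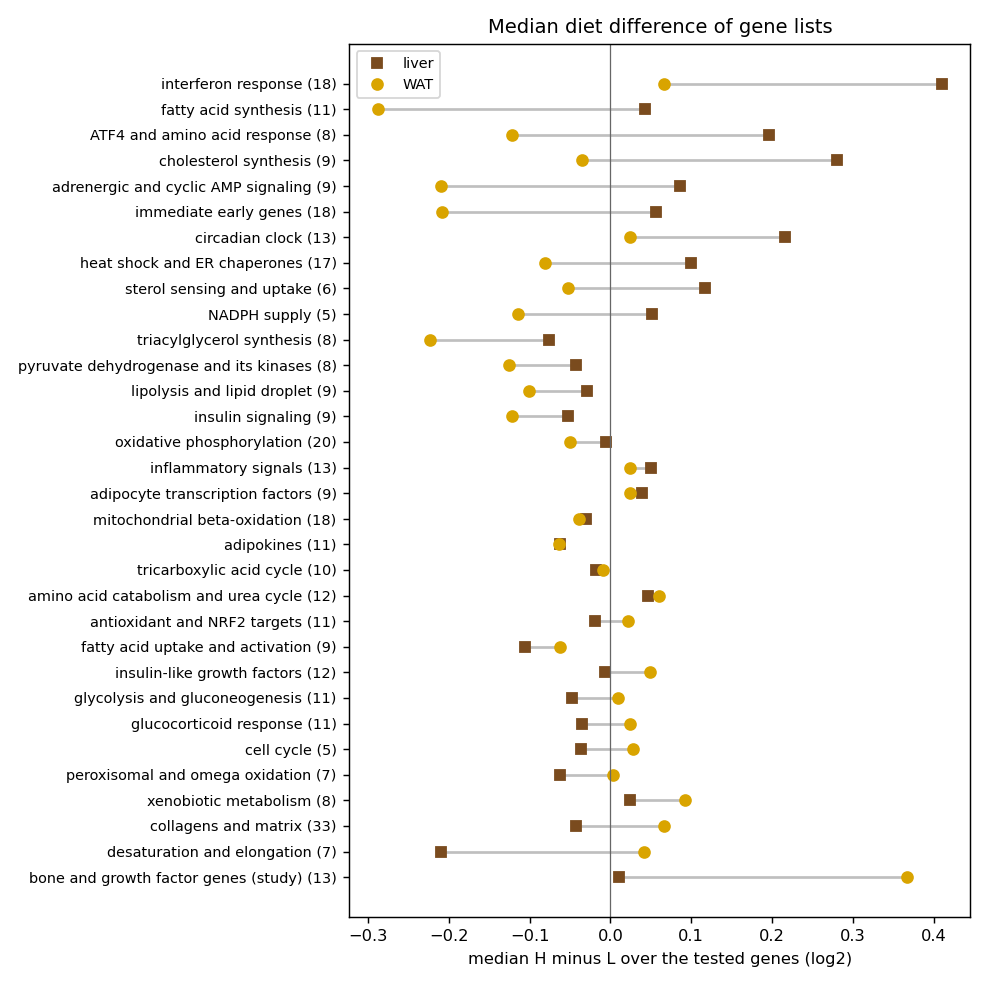
Median H minus L difference (log2) over the tested genes of each list with at least 5 of them, in the liver (squares) and in WAT (circles), with the number of tested genes in parentheses. Of 32 lists, 16 had medians of opposite sign, and 8 of these were above 0 in the liver and below 0 in WAT, of which 2, NADPH supply and the ATF4 genes, stayed so with each rat left out. Fatty acid synthesis did not without L1 or H15, nor cholesterol synthesis without H13.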

How the data were processed

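Total RNA of each tissue was hybridized to an Affymetrix GeneChip rat genome array by the authors, 1 array per rat and tissue. The deposited log2 values were made by the authors with RMA for the liver and with qFARMS for WAT, each tissue quantile normalized on its own, and were used as deposited. Values lay between 1.88 and 14.3 in the liver and between 4.56 and 14.9 in WAT. Of the 31042 probe sets left after 57 controls, 26035 had a WAT range of 0.01 or less (25762 held 1 value to within 1e-06) and were not tested, since qFARMS sets such probe sets to a constant. No array pair held the same values.

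The 18 arrays were fitted with limma 3.58.1 in R 4.3.3 on the means of the 4 tissue and diet groups, with the contrast of H minus L in WAT minus H minus L in the liver, and the 9 arrays of each tissue were fitted alone. p was adjusted by Benjamini-Hochberg over the 5007 tested probe sets. Rank products, the authors' method, was written in Python 3.11.15 (numpy 2.4.6, pandas 2.3.3, scipy 1.17.1, figures with matplotlib 3.10.9) with 100 permutations and a false discovery rate under 0.05 over all 31042 probe sets. The steps were tested on simulated data. The liver and WAT arrays with the same number come from the same rat by their titles, and their deviations from the group means correlated at 0.168 to 0.354 in all 9 rats, so rat was used as a fixed and as a random replicate block (consensus correlation 0.139).

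Symbols came from the platform annotation, with 3900 probe sets of 1 symbol, 139 of several and 968 of none, and older names were updated through RefSeq. The 35 gene lists and 14 marker lists held 731 genes, of which 407 were tested. A list gene was taken on the tested probe set with the highest mean. The members and lists were chosen with earlier results of these data known. Genes were named where they had the smallest interaction p of a list (up to 4 each), where L and H did not overlap in both tissues, or where the study names them. Prps2, Slc20a1, Enpp5, Lamp2, Man2b1, Tubb4b, Smim1, Bcl6, Cish, Thrsp, Dhcr7, Slc25a1, Aacs and the other genes outside this rule were chosen after their values were seen. Alternatives were the replicate blocks, other sets of probe sets, other scalings, array weights, a trended and robust fit, other thresholds, all 13 liver arrays, genes averaged over their probe sets, and each rat left out in turn with both of its arrays.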

Additional observations from a re-analysis of the deposited data

Results flagged for a closer look

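In 8 of the 152 groups of 4 or 5 arrays examined for the genes of the text, 1 array lay apart from the rest by Dixon's criterion, and chance gives about 1 in 20. Rat H12 was the highest H rat in WAT for Me1 (9.92, the next 8.84), Taldo1 (10.97, the next 10.70) and Mgst1 (13.50, the next 13.49), and rat H16 for Cxcl1 (8.38, the next 6.49). In the L-group, rat L1 was the lowest in WAT for Nsdhl (8.34), rat L2 the lowest in the liver for Psph (5.99), and rat L4 the lowest in WAT (8.87) and the highest in the liver (4.36) for Igf2. Opposite directions in the tissues without overlap were seen for Mccc2, with a difference between them of -0.67 (limma adjusted p = 0.109), and for Mgst1, with -0.070 (limma adjusted p = 0.812), and no difference between the tissues was shown for either.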

How the results depend on the processing

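Many of the 38 probe sets of the plot of differences between the tissues were named for their values on these same arrays. Their stability is therefore no independent support. The sign of the difference was kept for all 38 under every alternative run. Of 27 others named, 8 changed it under at least 1: with each probe set scaled to unit SD in each tissue Bmal1 (-0.28), Npas2 (-0.74), Ppm1l (-0.041), Sec63 (-0.084) and Sfxn1 (0.029), with WAT scaled to the liver spread Rchy1 (0.0041), and with each rat left out Rchy1 (-0.044 to 0.0035), Scd2 (-0.0501 to 0.289) and Elovl5 (-0.025 to 0.246). The 0 probe sets called between the tissues became 1 with rat as a fixed replicate block, 12 with a random replicate block, 3 with WAT scaled to the liver spread (Slc20a1, Prps2 and Pnpla3), 3 with a trended and robust fit (Prps2, Lamp2 and Pnpla3), 13 with array weights, 55 over all non-control probe sets (46 of them with a WAT range of at most 0.01, so that they rest on the liver) and 9 at an adjusted p under 0.10, and 0 to 11 with each rat left out (11 without H12). With unit SD it was 0, with a smallest adjusted p of 0.712. In WAT the count of 0 became 17 over all probe sets (none among the 5007) and 577 with rank products. In the liver 3 became 6 over all probe sets, 5 with all 13 livers, 194 with rank products and 0 to 8 with each rat left out. Rank products calls shared by the tissues were fewer at a rate under 0.01, with limma and over the tested probe sets alone: 21 higher in both became 7, 0 and 2 (5 to 23 with each rat left out), 26 lower in both became 9, 0 and 4 (10 to 37), and 14 lower in WAT and higher in the liver became 6, 0 and 0 (5 to 12). The reverse ran from 0 to 3. Without overlap, the 2 probe sets lower in WAT and higher in the liver became 1 with a WAT range over 0.1, 1 after centring and 1 after quantile normalization (2 to 9 with each rat left out), and the reverse 1 after quantile normalization (1 to 6). Higher in both ran from 8 to 19 and lower in both from 7 to 14, since fewer rats overlap less. With each rat left out, the list median ran from -0.052 (without H15) to 0.199 (without H13) for clock genes in WAT, from -0.130 to 0.0935 (without L1) for glucocorticoid response and from -0.021 to 0.018 for antioxidant genes in the liver. Opposite medians numbered 13 to 17 of 32 lists. No other call was changed by the block. Liver levels at the low end of the array, as for Pnpla3, limit what a liver difference can show.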
